A study of Rattus norvegicus with 20 samples.

Results

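IsomiRs with C, G, or mixed tails were examined in the anterodorsal part of the bed nucleus of the stria terminalis (adBNST) of adult rats. They are the sequences that matched a miRNA without a mismatch and were annotated with an addition at the 3′ end that was neither all A nor all T. Some of these additions also occur in a hairpin, as given below. Additions were up to 3 nucleotides long. The rule selected 12050 of the 66779 distinct sequences listed in the 20 libraries, from 443 of 617 miRNAs. By added bases, 926 of these sequences had a C-only tail, 954 a G-only tail, 3816 a tail of both A and T (A/T-mixed), and 6354 a mixed tail that held a C or a G. The last class includes 41 sequences with an unread base N, which gave 0.0119% of the tailed reads. For comparison, 4948 sequences had an A-only tail and 3302 a T-only tail.

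The 4 groups were group-housed (GH) males, socially isolated (SI) males, GH females, and SI females, with 5 Sprague-Dawley rats in each. All rats were weaned on postnatal day 21. GH rats then lived with same-sex littermates and SI rats lived alone for 6 weeks, all were tested on the elevated plus maze at 9 weeks of age, and the adBNST was punched from their frozen brains afterwards. The study asked whether isolation in adolescence changes miRNAs and their isomiRs in this sexually dimorphic region, and whether it does so differently in males and females. A punch holds all cells of the region, so fewer cells of a type and less RNA per cell cannot be told apart. Rats are named here by group and animal number.

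Small RNAs are trimmed and extended at the 3′ end after they leave the hairpin. Terminal nucleotidyl transferases add most often a U, read as T, or an A, and 3′ exonucleases remove nucleotides, so that tails of several bases and tails on shortened ends occur. A tail leaves the seed, the bases near the 5′ end that pair with targets, as it was.

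The sequences below are the 3 tailed sequences with the most reads in each class, written 5′ to 3′ with the added bases in capitals.
miR-323-3p, C-only: cacattacacggtcgacctcC
miR-487b-3p, C-only: aatcgtacagggtcatccactC
miR-664-3p, C-only: tattcatttactccccagcctaC
let-7f-5p, G-only: tgaggtagtagattgtatagttG
miR-107-3p, G-only: agcagcattgtacagggctatG
let-7c-5p, G-only: tgaggtagtaggttgtatggttG
let-7b-5p, A/T-mixed: tgaggtagtaggttgtgtggttAT
miR-92b-3p, A/T-mixed: tattgcactcgtcccggcctccAT
miR-92b-3p, A/T-mixed: tattgcactcgtcccggcctccAAT
miR-664-3p, mixed with C or G: tattcatttactccccagcctaCA
miR-433-3p, mixed with C or G: atcatgatgggctcctcggtgtAG
miR-92b-3p, mixed with C or G: tattgcactcgtcccggcctccAGT

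These sequences were listed in all 20 libraries. The A/T-mixed forms were the most abundant, with 140463 reads of let-7b-5p plus AT, 111493 of miR-92b-3p plus AT, and 81509 of miR-92b-3p plus AAT over the 20 libraries. The C-only forms of miR-323-3p (39678 reads) and miR-487b-3p (32899 reads) were both annotated with a lost terminal T and an added C. They were thus as long as the reference and differed from it in the last base only. The 2 leading forms of miR-664-3p, with C (23872 reads) and with CA (20744 reads), followed the complete reference sequence. In the G-only class, let-7f-5p (25448 reads) and let-7c-5p (21903 reads) carried a G after the complete reference, and miR-107-3p (24008 reads) had lost its last 2 bases, ca, before the G.

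The reference miRNAs were placed on GRCr8 by RefSeq, and the seed, bases 2 to 8, is in capitals in the next sequences. They are shown because they gave many of the tailed reads (miR-92b-3p, let-7b-5p, let-7c-5p, miR-127-3p, and miR-433-3p), had the highest tailed shares (miR-664-3p and miR-107-3p), share a tailed sequence with one of these (miR-103-3p), or had the lowest p between housing groups (miR-222-3p).
miR-92b-3p: tATTGCACtcgtcccggcctcc
let-7b-5p: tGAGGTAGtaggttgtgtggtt
let-7c-5p: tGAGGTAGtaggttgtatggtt
miR-127-3p: tCGGATCCgtctgagcttggct
miR-433-3p: aTCATGATgggctcctcggtgt
miR-664-3p: tATTCATTtactccccagccta
miR-107-3p: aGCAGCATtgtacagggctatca
miR-103-3p: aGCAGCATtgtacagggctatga
miR-222-3p: aGCTACATctggctactgggt

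MiR-92b-3p lies at chr2:176931663-176931684 (minus strand) with no other annotated gene at that position. Let-7b-5p (chr7:118684044-118684065) and a copy of let-7c-5p (chr7:118683636-118683657) lie close together on the plus strand. MiR-433-3p (chr6:134327421-134327442) and miR-127-3p (chr6:134328510-134328531) lie on the plus strand at the position of the protein-coding gene Rtl1, in the imprinted region that also holds miR-323-3p, miR-487b-3p, miR-134-5p, and miR-770-3p. MiR-107-3p (chr1:241750431-241750453, minus strand) and a copy of miR-103-3p (chr3:138963278-138963300, plus strand) lie at the positions of Pank1 and Pank2, which encode pantothenate kinases. The mature miR-664-3p was annotated at Mir664-2, at the position of Rab3gap2 (chr13:99324687-99324708, plus strand), and a further time at Snora36c. MiR-222-3p lies at chrX:6022682-6022702 (plus strand) at the position of a pair of long non-coding RNAs. The gene table used gave no exons, so exonic and intronic positions were not distinguished.

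Between 3428930 and 11383055 miRNA reads were listed per library, of which 74494 to 250837 were tailed in this way. GH males had 3428930 to 8244720 reads and SI males 4661886 to 11383055, and GH females had 3602338 to 8205770 and SI females 6255123 to 7805174. The median rank correlation of a library's miRNA counts with those of the others was between 0.886 and 0.980, and SI female 16 was the lowest. For the 2 SI rats numbered 17, the sample labels and the file names gave opposite sexes, and the labels were followed. The neuronal miRNAs miR-124-3p, miR-9a-5p, miR-128-3p, and miR-132-3p were all read, with a sum between 71533 and 187058 RPM (reads scaled to a common library size), lowest in an SI female and highest in a GH male. The 6 markers of choroid plexus and epithelium summed to between 786 and 16838 RPM, highest in an SI male, and the 3 blood markers to between 968 and 3389. The blood markers ranged from 1058 to 1406 RPM in GH males and from 1364 to 3171 in SI males, and from 968 to 1443 in GH females and from 1411 to 3389 in SI females. The part of the blood markers in the results below was not tested.

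Tailed reads of this kind made up between 1.83% and 2.90% of the reads without a mismatch, with a median of 2.32%. In each of the 20 libraries they were fewer than the A-only tailed reads (6.16% to 7.60%) and the T-only tailed reads (4.87% to 6.45%). The A/T-mixed class was the largest, at 58.8% ± 2.46 (SD, n = 20) of the tailed reads. Mixed tails with a C or G followed at 22.5% ± 1.19, C-only tails at 10.8% ± 1.44, and G-only tails at 7.97% ± 0.520. This order was the same in every group by the means of all reads without a mismatch. The depositors' trimming removed poly(A) sequences, which could shorten tails rich in A.

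A few short additions accounted for most of these reads. The dinucleotide AT alone was 35.5% ± 1.72 (SD, n = 20) of the tailed reads, and single C (10.4% ± 1.39) and single G (7.81% ± 0.506) came next. AAT (6.59% ± 0.710), TA (5.73% ± 0.557), and ATT (4.95% ± 0.799) completed the 6 most frequent additions, which together made up 71.0% of the tailed reads. The reverse order TA was thus far rarer than AT. In mixed tails with a C or G, AG (4.74% ± 0.460 of all tailed reads), CT (2.50% ± 0.338), and GA (1.94% ± 0.227) were the most frequent.

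The 1st base of an A/T-mixed tail was an A in 81.5% ± 1.54 (SD, n = 20) of its reads. Mixed tails with a C or G began with A in 45.8% ± 2.65, with C in 27.3% ± 2.65, and with G in 19.8% ± 1.33. C-only and G-only tails were single bases in 96.5% ± 0.795 and 98.0% ± 0.495 of their reads. A-only and T-only tails were single bases in 80.1% ± 1.01 and 90.8% ± 0.641, so runs of C or of G were the rarer ones.

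The classes differed in the 3′ end to which the tail was attached. C-only tails followed a shortened end in 70.3% ± 3.22 (SD, n = 20) of their reads, between 64.8% and 76.2% over the libraries. G-only tails did so in 34.2% ± 4.93, A/T-mixed tails in 28.4% ± 1.42, and mixed tails with a C or G in 47.1% ± 2.54. For A-only and T-only tails the values were 32.8% ± 1.69 and 30.5% ± 3.78. No library of another class came as high as the lowest value of C-only tails, the highest being 53.9% for mixed tails with a C or G. Reads annotated with a lost terminal T and an added C made up 48.7% ± 4.56 of all C-only reads. Such a read ends where the reference ends, so it cannot be told from a change of the last base. This annotation was seen in 152 sequences of 94 miRNAs, but miR-323-3p and miR-487b-3p gave 55.1% ± 6.44 of these reads. The 5′ end was the reference one in 94.0% ± 0.409 of all tailed reads and in 86.7% ± 2.52 of the C-only ones.

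Tailed reads came more from 3p arms than the reads as a whole did. Of the tailed reads, 52.3% ± 2.66 (SD, n = 20) belonged to miRNAs named 3p, compared with 27.7% ± 2.29 of all reads without a mismatch, and the ranges over libraries (48.0% to 59.5% and 22.9% to 31.2%) did not overlap. MiR-92b-3p, which belongs to the seed family of miR-25 and miR-92a, gave the most tailed reads, 14.6% on average and between 8.78% and 23.8% per library. Let-7b-5p (9.93%), let-7c-5p (6.11%), miR-127-3p (5.40%), and miR-26a-5p (4.87%) followed. With miR-128-3p (3.38%), miR-433-3p (3.32%), miR-9a-5p (2.28%), let-7a-5p (2.08%), and miR-323-3p (2.17%), these 10 miRNAs gave 54.2% of the tailed reads. Of the 12050 sequences, 446 were listed in all 20 libraries and held 69.7% of the tailed reads, and 5535 were listed in a single library and held 2.15%.

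The share of all reads was compared between housing groups. In GH males it was 2.49% in rat 16, 2.33% in rat 19, 2.09% in rat 18, 2.14% in rat 20, and 2.02% in rat 21. In SI males it was 2.25% in rat 15, 2.35% in rat 19, 2.16% in rat 22, 2.85% in rat 17, and 2.41% in rat 20. The male groups overlapped, and SI male 17 lay above all other males. In GH females it was 2.62% in rat 15, 2.18% in rat 12, 1.83% in rat 16, 2.54% in rat 13, and 2.12% in rat 17. In SI females it was 2.31% in rat 14, 2.19% in rat 10, 2.74% in rat 17, 2.45% in rat 12, and 2.90% in rat 16. The female groups overlapped as well, with the 2 highest values in SI rats.

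The means were 2.21% ± 0.192 (SD, n = 5) in GH males, 2.41% ± 0.268 in SI males, 2.26% ± 0.324 in GH females, and 2.52% ± 0.297 in SI females. SI exceeded GH by 0.193 percentage points in males (exact permutation test, two-sided, p = 0.238, n = 5 and 5) and by 0.263 in females (exact permutation p = 0.214). Within a sex the smallest p that this test can give is 0.00794. Over both sexes the difference was 0.228 (exact permutation within sex, p = 0.0739). The housing effect differed by 0.0701 percentage points between females and males (exact permutation p = 0.772), and females exceeded males by 0.0763 (exact permutation p = 0.524). After adjustment over the 25 tests of 5 measures and 5 comparisons, these p-values were between 0.599 and 0.880, so no difference was past the threshold. With all libraries thinned to the shallowest one, the difference over both sexes was also 0.228 (exact permutation p = 0.0767). Without SI female 16, SI male 17, and SI female 17, a choice made after seeing the data, the difference over both sexes was 0.0715 (exact permutation p = 0.533).

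By class, the difference in means between housing groups was largest in A/T-mixed tails, though not past the threshold after adjustment. They made up 1.26% ± 0.157 (SD, n = 5) of the reads in GH males, 1.45% ± 0.182 in SI males, 1.31% ± 0.239 in GH females, and 1.51% ± 0.230 in SI females. The difference over both sexes was 0.198 percentage points (exact permutation p = 0.0408, adjusted p = 0.599). C-only tails made up 0.249% ± 0.0206, 0.245% ± 0.0377, 0.260% ± 0.0232, and 0.250% ± 0.0158 of the reads in the same order of groups. G-only tails made up 0.182% ± 0.00866, 0.187% ± 0.0144, 0.176% ± 0.0161, and 0.201% ± 0.0289. Mixed tails with a C or G made up 0.521% ± 0.0399, 0.520% ± 0.0610, 0.508% ± 0.0654, and 0.553% ± 0.0416. The differences over both sexes were -0.00701 for C-only (exact permutation p = 0.536), 0.0158 for G-only (exact permutation p = 0.0753), and 0.0219 percentage points for mixed tails with a C or G (exact permutation p = 0.370), with adjusted p-values between 0.599 and 0.750.

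The total share was set beside the miRNA make-up of the libraries, whose part in the housing difference was not tested. MiR-92b-3p made up between 1.44% and 2.29% of the reads in GH males and between 1.79% and 4.35% in SI males, and between 1.02% and 2.48% in GH females and between 2.02% and 4.04% in SI females. The highest values, 4.35%, 4.04%, and 3.21%, were those of SI male 17, SI female 16, and SI female 17, which also had the 3 highest total shares. The tailed share of miR-92b-3p itself stayed between 14.3% and 17.7% in the 20 rats, and the lowest and the highest value were those of SI male 15 and GH male 16. Summed over miRNAs, SI exceeded GH by 0.214 percentage points over both sexes, of which miR-92b-3p gave 0.125. When each of the 131 miRNAs with at least 1000 reads in every library was given the same weight in all libraries, an alternative chosen after seeing the data, the tailed share was 2.34% ± 0.0996 (SD, n = 5) in GH males, 2.34% ± 0.0700 in SI males, 2.39% ± 0.124 in GH females, and 2.38% ± 0.0917 in SI females. The difference over both sexes was then -0.00458 percentage points (exact permutation p = 0.915). For A/T-mixed tails alone the difference over both sexes at equal make-up was 0.00165 (exact permutation p = 0.968). By class, mixed tails with a C or G at equal make-up were 0.523% ± 0.0155 (SD, n = 5) in GH males and 0.492% ± 0.0181 in SI males. The difference was -0.0302 (exact permutation p = 0.00794, the smallest possible, adjusted p = 0.198). The groups did not overlap but nearly met, at 0.5098% in GH male 21 and 0.5096% in SI male 19. At each library's own make-up the difference was -0.000799 (exact permutation p = 0.992). For G-only tails at equal make-up the housing effects of females and males differed by 0.0245 (exact permutation p = 0.0203, adjusted p = 0.254). Unlike the other total shares, those at equal make-up counted a sequence for each miRNA that listed it, also where it was tailed for only 1 of them.

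Across these 131 miRNAs the mean tailed share over the 20 rats ranged from 0.104% to 64.1%, with a median of 1.54% and quartiles of 0.741% and 4.07%. It exceeded 10% in 11 miRNAs and was below 1% in 48. A/T-mixed tails were the leading class in 79 of them, mixed tails with a C or G in 25, G-only tails in 16, and C-only tails in 11. Of the 131, 117 were found by name in RefSeq, and 108 with a hairpin that held the mature sequence.

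MiR-664-3p had the highest share, 64.1% ± 3.68 (SD, n = 20), between 58.5% and 70.8%. Its tails were mixed with C or G in 34.1% and C-only in 29.0% of its reads, while A/T-mixed tails were 0.688%. The RefSeq hairpin of Mir664-2 ended with the last base of the mature miRNA, so whether a C and CA are the next bases of the precursor could not be read from it. It was the only hairpin among the 108 with no base after the mature sequence.

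MiR-107-3p was next, with 56.3% ± 5.38 (SD, n = 20), between 42.1% and 66.8%. G-only tails were 53.7% of its reads, and a single sequence, the one ending in ctatG above, was 52.4% ± 5.23. This sequence is also miR-103-3p without its last base, and it was listed for both miRNAs. Without sequences found whole in a RefSeq hairpin the tailed share of miR-107-3p was 3.01%, and with reads listed for a single miRNA it was 5.58%. At each library's own make-up, the total shares above counted such reads once and as untailed. At equal make-up they were counted as listed for each miRNA.

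The same held for a few other sequences. The form of miR-129-1-3p with a C, aagcccttaccccaaaaagC, made up 63.2% ± 11.3 (SD, n = 20) of that miRNA, which was below 1000 reads in at least 1 library, and it occurs in the hairpin Mir129-2. The form of miR-27b-3p ttcacagtggctaagttcC occurs in Mir27a, and that of miR-103-3p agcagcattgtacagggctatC in Mir107. The form of miR-344a-3p tgatctagccaaagcctgacCGT occurs in Mir344-1. The leading G-only sequence of let-7f-5p also continues in the hairpin Mirlet7f-1os, whose bases after the mature sequence are GTG. In all, 20 tailed sequences were listed untailed for another miRNA and held 1.37% of the tailed reads. When reads were counted once, sequences found in a RefSeq hairpin made up 10.6% ± 2.53 (SD, n = 20) of the G-only reads, 0.346% ± 0.251 of the C-only reads, 0.515% ± 0.263 of the reads of mixed tails with a C or G, and none of the A/T-mixed reads.

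In the other 8 miRNAs of the highest 10, A/T-mixed tails led. MiR-127-3p had a tailed share of 16.6% ± 1.005 (SD, n = 20), miR-134-5p of 16.2% ± 2.12, and miR-92b-3p of 15.9% ± 1.04. These neighbours in the order differed by less than 1 SD. MiR-770-3p followed with 14.7% ± 1.72, miR-3099 with 13.2% ± 2.30, miR-760-3p with 10.9% ± 1.63, miR-185-5p with 10.9% ± 2.47, and let-7b-5p with 10.5% ± 0.658. Only the steps from miR-664-3p to miR-107-3p (1.69 SD), from miR-107-3p to miR-127-3p (10.3 SD), and from miR-3099 to miR-760-3p (1.14 SD) were larger than 1 SD.

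Leading tailed sequences of these miRNAs are shown for the tails AT and AAT on full-length and on shortened ends.
miR-127-3p: tcggatccgtctgagcttggctAT
miR-127-3p, T lost: tcggatccgtctgagcttggcAT
miR-134-5p, G lost: tgtgactggttgaccagagggAAT
miR-3099: taggctagaaagaggttggggaAT
miR-760-3p: cggctctgggtctgtggggaAT
miR-185-5p: tggagagaaaggcagttcctgaAT

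The full-length form of miR-127-3p with AT was 4.75% ± 0.548 (SD, n = 20) of that miRNA and the form without its last T 3.45% ± 0.431. In miR-134-5p, which limits dendritic spine growth in neurons, the leading form had lost a G and gained AAT (3.40% ± 0.900). In miR-3099 the form with AT was 6.89% ± 1.44, of a tailed share of 13.2%. In miR-185-5p it was 2.77% ± 1.53, and it was not listed in 1 of the 20 libraries. MiR-134-5p carried A-only tails in 46.8% of its reads and miR-760-3p T-only tails in 34.3%, so high shares of mixed tails occurred beside either kind.

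The lowest shares were those of miR-340-3p (0.104%, between 0% and 0.627% per library), miR-129-2-3p (0.137%, between 0% and 0.884%), and miR-411-5p (0.151%, between 0% and 0.516%). Sequences read once were not listed, so 0% in these miRNAs, with as few as 1063, 1366, and 1174 reads in a library, is below the listing limit and not an absence of tails.

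The miRNAs of one seed family differed widely. The let-7 guide strands share the seed GAGGTAG, and their tailed shares were between 0.401% ± 0.113 (SD, n = 20) in miR-98-5p and 10.5% ± 0.658 in let-7b-5p, with a median of 0.923%. Let-7b-5p was above each of the other 8 in all 20 rats. Its A/T-mixed tails were 8.66% of its reads, compared with 1.20% in let-7c-5p and 1.49% in let-7e-5p. The G-only share ran in another order. It was 0.427% in let-7f-5p, 0.422% in let-7g-5p, 0.330% in let-7a-5p, 0.312% in let-7b-5p, and 0.307% in let-7c-5p, but 0.0284% in let-7e-5p, 0.0246% in let-7i-5p, and 0.0223% in miR-98-5p. In let-7f-5p, the sequence that continues in the hairpin Mirlet7f-1os was 0.399% of the reads.

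Other families showed such differences too. MiR-92b-3p (15.9%) was above miR-92a-3p (7.86% ± 1.43) and miR-25-3p (2.10% ± 0.783) in all 20 rats. MiR-181b-5p (6.39% ± 0.908, SD, n = 20) was above miR-181a-5p (0.558% ± 0.204) in all 20 rats and above miR-181d-5p (4.03% ± 2.56) in 15 of them. MiR-222-3p (5.59% ± 0.994) was above miR-221-3p (4.58% ± 0.795) in 16 of 20 rats. MiR-26a-5p (1.87% ± 0.266) and miR-26b-5p (2.20% ± 0.619) had like totals with another make-up, since A/T-mixed tails were 1.33% of the former and 0.488% of the latter, and mixed tails with a C or G 0.367% and 1.52%.

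Of the lists described, the 23 miRNAs of the imprinted cluster had 14 with enough reads, and their shares ranged from 0.151% in miR-411-5p to 16.6% in miR-127-3p, with a median of 1.71%. The miR-99, miR-100, and miR-125 group had low shares in all 5 members, from 0.336% to 0.572%. The 4 measured of 5 members of the miR-30 family had shares from 0.401% to 0.907%. Of the miR-29 family only miR-29a-3p had enough reads (0.909%), and of 5 mirtrons none had. The 6 measured of 12 brain-enriched miRNAs had shares from 0.421% in miR-9a-3p to 2.43% in miR-218a-5p. The median over all 131 miRNAs was 1.54%.

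Shares of different tail kinds went together across miRNAs to differing degrees. Over the 131 miRNAs, Spearman's rho was 0.635 (Pearson's r 0.595) between the A/T-mixed and the A-only share and 0.551 (0.288) between the A/T-mixed and the T-only share. It was 0.730 (0.130) between mixed tails with a C or G and A/T-mixed tails. For C-only against G-only tails it was 0.0812 (-0.0141), and for C-only against T-only tails -0.0179 (-0.0411). These are descriptions across miRNAs, which share the same 20 libraries and are not independent replicates. By arm, the median was 1.97% in 63 miRNAs named 3p and 0.915% in 58 named 5p. By the last base of the reference it was 1.76% after A (24 miRNAs), 2.02% after C (21), 1.26% after G (23), and 1.67% after T (49).

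The tailed share of each miRNA was then compared between housing groups with edgeR's quasi-likelihood test, in which the miRNA's own reads without a mismatch were the offset. The table held these tails beside the A-only and T-only tails of the same miRNAs, 855 features in all with at least 10 reads in at least 5 libraries. Of the 443 miRNAs with tails of this kind, 242 passed this filter. In males, 0 of 242 were past an adjusted p of 0.05, against 0.468% of the whole table. The unadjusted p was under 0.05 for 8 (3.31%), against 9.24% of the table. In females, 0 of 242 were called, against 0% of the table, and 13 were under 0.05 unadjusted (5.37%, against 7.84%). For the mean of both sexes, 0 of 242 were called, against 1.4% of the table, with 16 under 0.05 unadjusted (6.61%, against 12.5%). For the difference of the housing effects it was 0 of 242, against 0% of the table, with 8 under 0.05 unadjusted (3.31%, against 5.50%). DESeq2 called 1 of the 64 to which it gave an adjusted p in males (1.56%, against 7.44% of the table), 0 of 242 in females (against 0.117%), 2 of 77 for the mean of both sexes (2.60%, against 9.74%), and 0 of 242 for the difference (against 0.117%). The median log2 ratio of SI to GH was -0.03 in males and -0.01 in females, as over the whole table (-0.03 and -0.01). In simulated tables of this design, edgeR recovered 42.0% of the shares changed by 1 on the log2 scale for both sexes and 56.0% of those changed by 2. The changed shares were drawn from all 855 features, A-only and T-only tails included, so recovery among the 242 was not measured. For changes of 1, DESeq2 made 112 calls for both sexes, 13 of them unchanged shares, and edgeR 90, 6 of them unchanged.

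MiR-222-3p, which with miR-221 regulates proliferation and vessel growth, had the lowest p for males and for the mean of both sexes. Its tailed share was 8.04%, 5.001%, 6.10%, 6.50%, and 6.21% in GH males 16, 19, 18, 20, and 21, and 4.92%, 5.04%, 4.13%, 4.82%, and 4.65% in SI males 15, 19, 22, 17, and 20. In females it was 7.39%, 5.59%, 5.30%, 6.52%, and 5.75% in GH rats 15, 12, 16, 13, and 17, and 4.44%, 5.16%, 4.92%, 5.26%, and 6.12% in SI rats 14, 10, 17, 12, and 16. SI rats were lower on average in both sexes. In males the groups overlapped only in that GH male 19 lay just below SI male 19, and in females SI female 16 lay above 3 GH rats. The log2 ratio of SI to GH was -0.44 (SE 0.13, edgeR adjusted p = 0.113) in males and -0.34 (SE 0.09, edgeR adjusted p = 0.0507) for the mean of both sexes, with DESeq2 adjusted p-values of 0.0305 and 0.0122. With 1 rat left out in turn, the ratio for both sexes was between -0.37 and -0.29 and past the threshold in 3 of 20 fits, those without GH male 19, GH female 16, or SI female 16.

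In the table split by class, miR-222-3p had its lowest p in A/T-mixed tails. Their share was 4.94% ± 1.33 (SD, n = 5) in GH males, 3.24% ± 0.447 in SI males, 4.75% ± 0.832 in GH females, and 3.76% ± 0.385 in SI females, a log2 ratio of -0.47 for both sexes (SE 0.12, edgeR adjusted p = 0.0511). The ratios were 0.36 for C-only tails (SE 0.32), 0.12 for G-only tails (SE 0.40), and -0.20 for mixed tails with a C or G (SE 0.25). Its A-only tails had a ratio of -0.20 (SE 0.08, edgeR adjusted p = 0.267) and its T-only tails of -0.04 (SE 0.10). The leading tailed sequences were extensions along the hairpin followed by AT.
miR-222-3p, extended by CTC: agctacatctggctactgggtctcAT
miR-222-3p, extended by CT: agctacatctggctactgggtctAT

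The next miRNAs by p had few tailed reads. MiR-434-5p had 52, 2, 18, 33, and 22 tailed reads in GH males 16, 19, 18, 20, and 21 and 0 in all 5 SI males, of 0.0963% to 1.995% of its reads in GH males (edgeR adjusted p = 0.113). In females the reads were 0, 22, 11, 7, and 17 in GH rats and 18, 0, 2, 0, and 2 in SI rats, so the groups overlapped. MiR-379-3p had 23, 28, 13, 3, and 32 tailed reads in GH males and 2 reads in SI male 15 with 0 in the other SI males (edgeR adjusted p = 0.163). These were 3.65%, 4.18%, 1.65%, 0.149%, and 1.99% of its reads in GH males and 0.0688% in SI male 15. It also had the lowest p for the difference of the housing effects, before miR-339-5p and miR-434-5p (edgeR adjusted p = 0.595 each), with 0, 6, 33, 8, and 0 reads in GH females and 48, 0, 0, 53, and 0 in SI females. Both miRNAs belong to the imprinted Dlk1-Dio3 cluster. No fold is given for them, since sequences with a single read were not listed.

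In females, miR-326-3p and miR-138-5p had the lowest p. The tailed share of miR-326-3p was 5.35%, 5.12%, 5.41%, 6.64%, and 4.37% in GH females and 14.7%, 12.3%, 4.67%, 15.2%, and 19.2% in SI females 14, 10, 17, 12, and 16. SI female 17 lay within the GH range and the other 4 SI rats above it. The log2 ratio was 1.30 (SE 0.41, edgeR adjusted p = 0.220) in females and 0.82 (SE 0.28, edgeR adjusted p = 0.154) for the mean of both sexes, where DESeq2 gave an adjusted p of 0.0483. In males the share was between 2.72% and 12.1% in GH rats and between 3.36% and 11.7% in SI rats. Its leading tailed sequence had lost the last bases gt and gained CT.
miR-326-3p: cctctgggcccttcctccaCT

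MiR-138-5p, a brain miRNA that acts on dendritic spines, had tailed shares of 11.7%, 13.3%, 6.94%, 11.98%, and 6.98% in GH females and of 13.98%, 12.2%, 38.7%, 13.9%, and 40.4% in SI females. The values of SI females 17 and 16 stood apart from the other 3, which lay at 12.2% to 13.98% beside a GH maximum of 13.3% (log2 ratio 1.23, SE 0.44, edgeR adjusted p = 0.318). MiR-339-5p, which had few reads in all, had 0, 13, 5, 3, and 16 tailed reads in GH females and 0 in all SI females (edgeR adjusted p = 0.454).

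Single tailed isomiRs were compared in the table of all isomiRs, with edgeR's quasi-likelihood test on counts normalized by TMM. Of 10290 isomiRs with at least 10 reads in at least 5 libraries, 1872 had a tail of this kind, out of 12115 such isomiRs before the filter. In males, 0 of 1872 were past an adjusted p of 0.05, against 0.00972% of all isomiRs. The unadjusted p was under 0.05 for 151 (8.07%), against 9.11% of all. In females, 0 were called, against 0% of all, and 153 were under 0.05 unadjusted (8.17%, against 9.22%). For the mean of both sexes 2 were called, against 0.253% of all isomiRs, with 213 under 0.05 unadjusted (11.38%, against 14.004%). For the difference of the housing effects it was 0, against 0.00972%, with 147 under 0.05 unadjusted (7.85%, against 6.41%). DESeq2 called 7 of the 223 to which it gave an adjusted p in males (3.14%, against 7.24% of all isomiRs), 11 of 1270 in females (0.866%, against 1.35%), 37 of 1871 for the mean of both sexes (1.98%, against 4.11%), and 3 of 1871 for the difference (0.160%, against 0.185%). Of its 37 calls, 18 were higher and 19 lower in SI rats, and 8 had a group in which the isomiR was listed in no rat. Many DESeq2 calls were false when isomiR tables were simulated. With a log2 change of 1, unchanged isomiRs were 33 of its 49 calls in males and 44 of its 74 for both sexes. In the same tables edgeR called 0 unchanged isomiRs. The simulated counts were drawn with the spread that edgeR had estimated, which may favour edgeR. With this limit, DESeq2 counts and adjusted p-values for isomiRs are not taken as held to the 0.05 threshold. The paper's own list of changed isomiRs in males holds a form of this kind, miR-101a-3p with a lost A and CT added. There it was lower in SI rats. In the simulated isomiR table edgeR recovered 4.50% of the isomiRs changed by 1 on the log2 scale for the mean of both sexes and 27.0% of those changed by 2.

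The called isomiRs were forms of miR-29a-3p and miR-181a-5p, both lower in SI rats.
miR-29a-3p, A lost and GA added: tagcaccatctgaaatcggttGA
miR-181a-5p, T lost and C added: aacattcaacgctgtcggtgagC

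The miR-29a-3p form had 28, 0, 9, 19, and 17 reads in GH males 16, 19, 18, 20, and 21 and 0, 11, 19, 6, and 18 reads in GH females 15, 12, 16, 13, and 17. It was listed in none of the 10 SI rats. It thus passed the filter on reads through GH rats alone, which the adjusted p below does not allow for. It was not listed in GH male 19 and GH female 15 either, so those 2 rats were not separated from SI rats. The edgeR adjusted p for the mean of both sexes was 0.0466. It was at most 0.0711% of the reads of miR-29a-3p, a miRNA that represses extracellular matrix genes. MiR-29a-3p itself had 27575 to 70261 reads in GH males and 21116 to 38353 in SI males. In females it had 35272 to 80335 reads in GH rats and 4872 to 50410 in SI rats. These counts are not scaled to library size, and the median library size was higher in SI rats of both sexes. The paper lists miR-29a-3p as lower in SI rats of both sexes. This form was not tested as a share of miR-29a-3p, so a change of the miRNA and a change of the tail were not separated.

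The miR-181a-5p form had 30, 29, 6, 42, and 50 reads in GH males and 8, 14, 8, 2, and 8 in SI males. In females it had 26, 27, 20, 25, and 17 reads in GH rats and 5, 10, 14, 11, and 8 in SI rats. The read counts of the female groups did not overlap, and among males GH male 18 lay within the SI range. The log2 ratio was -1.96 (SE 0.40, edgeR adjusted p = 0.0490) for the mean of both sexes and -2.27 (SE 0.58, edgeR adjusted p = 0.230) in males. As a share of miR-181a-5p it was between 0.0196% and 0.0985% in GH males and between 0.00571% and 0.0260% in SI males, and between 0.0250% and 0.0595% in GH females and between 0.0115% and 0.0345% in SI females, so that the shares overlapped in both sexes. With 1 rat left out in turn, the miR-29a-3p form was past the threshold in 4 of 20 fits (without GH male 19, GH female 15, SI female 10, or SI female 16) and the miR-181a-5p form in 2 of 20 (without SI female 10 or SI female 16). With the 2 libraries of the SI rats numbered 17 exchanged, both adjusted p-values were 0.0615.

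The isomiRs with the lowest p within a sex did not pass the threshold. In males they were miR-125a-5p with a lost A and TA added, 51, 0, 7, 17, and 11 reads in GH rats and 0 in all SI rats (edgeR adjusted p = 0.174), and miR-300-3p with lost tc and GT added. The latter had 160, 156, 170, 303, and 350 reads in GH males 16, 19, 18, 20, and 21 and 236, 119, 92, 69, and 86 in SI males 15, 19, 22, 17, and 20, with a log2 ratio of -1.42 (SE 0.32, edgeR adjusted p = 0.174, DESeq2 adjusted p = 0.00154). As a share of miR-300-3p it was between 3.39% and 5.37% in GH males and between 2.61% and 6.94% in SI males, so its share of the miRNA overlapped between the groups.

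In females they were miR-222-3p extended by CT with TAA added (44, 27, 2, 27, and 4 reads in GH rats and 0 in all SI rats), miR-125b-5p with AAT added (68, 37, 3, 20, and 0 reads in GH rats and 0 in all SI rats), and miR-320-3p with a lost A and TA added. Their edgeR adjusted p was 0.318 each. The miR-222-3p form passed the filter on reads through GH rats alone. The miR-320-3p form had 33, 16, 19, 41, and 12 reads in GH females and 54, 106, 83, 127, and 169 in SI females, a log2 ratio of 1.84 (SE 0.50), and was between 0.0626% and 0.155% of miR-320-3p in GH females and between 0.159% and 0.379% in SI females. The read counts and the shares did not overlap between these groups. For the difference of the housing effects, miR-221-3p with TA, miR-433-3p with AGA, and the miR-125a-5p form with TA had the lowest p (edgeR adjusted p = 0.676 each). The miR-433-3p form was between 0.485% and 1.12% of its miRNA in GH males and between 0.277% and 0.484% in SI males, and between 0.303% and 0.864% in GH females and between 0.510% and 1.25% in SI females.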

How the data were processed

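Small RNA libraries (NEXTflex kit) were made from adBNST punches of 20 rats, each library from a separate rat. The authors trimmed reads with cutadapt, collapsed them, and annotated them with seqbuster against miRBase version 21 rat hairpins, and the deposited files list each sequence with its read count, mismatch, addition, and end changes. FastQC and STAR are also named in the submitters' processing notes, without versions. Sequences with a single read were not listed. Counts are PCR reads without molecular identifiers, so any count limit covers counting error only.

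Rows with no mismatch and an addition that was neither all A nor all T were taken. For total shares each sequence was counted once per library, as untailed where it was also listed untailed. At equal make-up a sequence was instead counted for each miRNA that listed it. Total shares were compared by exact two-sided permutation tests over rats (p-values adjusted by Benjamini-Hochberg over 25 tests). The tailed share per miRNA and the table of isomiRs were tested with edgeR 4.0.16 (quasi-likelihood, R 4.3.3; Benjamini-Hochberg), with DESeq2 1.42.0 as an alternative, for features with at least 10 reads in at least 5 libraries. All 4 groups shared 1 fit. Both fits were tested on simulated data, drawn with the spread that edgeR had estimated. Libraries held 3428930 to 11383055 reads. Sequences were taken from the deposited files and RefSeq (GRCr8) tables.

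Named were the 10 miRNAs with the highest and the 3 with the lowest tailed share among those with at least 1000 reads in every library, the 10 with the most tailed reads, the 3 leading sequences per class, and, per comparison, up to 5 past the threshold or else the 3 with the lowest p. Further forms shown with the named miRNAs were chosen after their values were seen. The members and lists were chosen with earlier results of these data known. Rats were not paired by animal number. Over 131 miRNAs, deviations of same-numbered GH and SI rats correlated between -0.209 and 0.0321. These few pairs cannot show whether rats shared a litter or a batch. Pairwise comparison of the 20 libraries found no duplicates. Rows with a mismatch were left out.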

Additional observations from a re-analysis of the deposited data

Results flagged for a closer look

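Of 100 groups of 5 rats examined for a rat far from the other 4, 10 had one, where chance gives about 1 in 20 groups, or 5. They were chosen by the gap to the nearest rat as a share of the group's range. In SI male 17, mixed tails with a C or G were 0.625% of all reads beside a next value of 0.517%, the tailed share of miR-323-3p was 11.3% beside 8.05%, and that of let-7b-5p was lowest, at 9.49% beside 10.8%. In SI male 15 the tailed share of let-7a-5p was lowest, at 0.723% beside 0.897%, and that of miR-340-3p was 0.144% with 0% in the other SI males.

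In SI male 22 the tailed share of miR-129-2-3p was 0.884% beside 0.166%. In GH female 16 that of miR-340-3p was 0.0811% with 0% in the other GH females. In SI female 16 the tailed share of miR-127-3p was lowest, at 14.2% beside 16.7%, and that of miR-129-2-3p was 0.0755% with 0% in the other SI females. In SI female 12 that of miR-323-3p was lowest, at 8.08% beside 8.82%. The shares of miR-340-3p and miR-129-2-3p rest on few reads.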

How the results depend on the processing

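Total shares stayed short of the threshold in all 285 comparisons under other settings (lowest adjusted p 0.198, 28 with the other sign) and in all 500 with 1 rat left out (22 with the other sign). The counts of tailed miRNAs and isomiRs called moved more, and the cause was not tested. For shares per miRNA, counts rose from 0 to 1 with DESeq2 in males and with the replicate block in females. For both sexes they rose to 2 with DESeq2 and with a denominator without tailed reads, and to 1 with at least 10 reads in every library, no filter, no tails after a shortened end, tails with a C or G alone, or the table split by class. For isomiRs in males, from 0, DESeq2 gave 7, at least 10 reads in every library 2, leaving out SI female 16 and the SI rats numbered 17 (chosen after seeing the data) 4, no filter 34, and the rats of that sex alone 1. In females DESeq2 gave 11 and no filter 42. For both sexes, from 2, DESeq2 gave 37, at least 10 reads in every library 21, no filter 296, thinning to the shallowest library 1, and the exchange of the libraries of the SI rats numbered 17 gave 0, as did the rats of shared number with and without the replicate block. For the difference of the housing effects DESeq2 gave 3 and no filter 178. The DESeq2 counts for isomiRs are to be read with its many false calls in simulation.

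With 1 rat left out, the counts were 0 to 1 for shares per miRNA over both sexes (1 without GH male 19, GH female 16, SI female 10, or SI female 16), and for isomiRs 0 to 4 in males (4 without SI female 16, 1 without SI male 19) and 0 to 1 for the difference (1 without SI male 19). Over both sexes the isomiR count was 0 to 18, with 18 without SI female 10, 5 without SI female 16, 1 without GH female 15, GH male 19, SI male 19, or SI male 20, and 0 without any of the other 14 rats. The animal numbers were not taken to pair the rats, and the fit with the replicate block keeps only the 10 rats whose number occurs in both housing groups of a sex. Over those rats the total share differed by 0.454 percentage points (exact permutation p = 0.0625, the smallest that 5 pairs allow), a mean difference that the choice of rats sets and the pairing does not change. The median share across miRNAs, taken in each rat and then averaged at 1.505%, was 0.0543% with sequences listed in all 20 libraries, 0.660% with tails holding a C or G, 0.566% without tails after a shortened end, and 1.85% with a denominator without tailed reads. In simulated isomiR tables edgeR recovered 0% of the isomiRs changed by 1 on the log2 scale in males. Sequences with a single read were not listed, so a share of 0% is below that limit.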
